A study of Homo sapiens with 105 samples.

Results

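Caco-2 cells were incubated with outer membrane vesicles (OMVs) of *P. mirabilis* DSM 4479 or with phosphate-buffered saline (PBS), and RNA was taken after 10 h. Caco-2 is an established line from a human colon adenocarcinoma (ATCC HTB-37) that is widely used as a model of absorptive gut epithelium, and *Proteus mirabilis* is a Gram-negative bacterium of the gut and urinary tract. Each OMV well received 6000000000 vesicles, and PBS was the vehicle. The comparison covers 8 libraries, 4 of each kind, numbered replicates 2 to 5 in the labels. The other libraries hold cells given vesicles of *L. casei* or *E. faecalis*, vesicle RNA, lipopolysaccharide (LPS) or a non-targeting control siRNA, for 10, 24 or 48 h. This 1 cell line was used throughout, and no other cell type was added.

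Of those 8 libraries, 5 entered the main fit: OMV replicates 2, 3 and 4 and PBS replicates 2 and 3. OMV replicate 5 and PBS replicates 4 and 5 were sequenced on 3 lanes of 1 flow cell, and all 3 correlated best in expression with fitted libraries of 24 h. Of the 39 libraries on those lanes, 27 correlated best with libraries of a time other than the labelled one and 12 with the labelled time, against 0 and 66 of the other libraries, and the lanes were left aside for all groups. This choice rests on expression, so results are given with and without these libraries. The fitted OMV libraries held 6444459, 8387329 and 5594770 counts and the fitted PBS libraries 2476570 and 7144185, within a range of 632659 to 8558755 over the series. All 12 epithelial markers checked had counts, with a summed level of 9330 to 10200 CPM (counts scaled to 1000000 per library) with OMVs and 9080 to 9190 CPM with PBS. One of them, LGALS4, was near the floor, at 0.253 to 1.62 CPM over the 8 libraries. The immune markers summed to 12.7 to 14.3 CPM with OMVs and 12.9 to 15.7 CPM with PBS, and PTPRC, CD2, MS4A1 and TYROBP had no count in any of the 8 libraries. CSF1R, also on that list, had 6.46 to 10.9 CPM over the 8 libraries. In such bulk RNA, more cells that use a gene and more RNA per cell cannot be told apart.

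Outer membrane vesicles are shed by Gram-negative bacteria and carry LPS, lipoproteins, peptidoglycan pieces, periplasmic proteins and nucleic acids to host cells. Epithelial cells sense such material through Toll-like receptors at the membrane and NOD-like receptors and ALPK1 in the cytosol, most of which signal through NF-kB. NF-kB target genes include chemokines that recruit neutrophils and lymphocytes, antimicrobial proteins, and inhibitors such as TNFAIP3 that shut the pathway off again. Differentiated enterocytes in turn use RNA for fat absorption, lipoprotein assembly, fatty acid oxidation and brush border enzymes.

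Of 18775 genes tested, 199 differed between OMVs and PBS at an adjusted p under 0.05 (1.06%). Levels were higher with OMVs for 79 genes (0.421%) and lower for 120 (0.639%). These shares are the comparison for the counts of list genes past the test given below. Of all genes tested, 9314 had log2 fold changes above 0 and 9461 below 0. The median log2 fold change was 0.675 over the raised genes and -0.509 over the lowered ones, against -0.0024 over all genes tested. A change of at least 2-fold was found for 22 raised and 15 lowered genes, while 30 raised and 59 lowered genes changed by less than 0.5 on the log2 scale. In 63 of the 79 raised genes every OMV library lay above both PBS libraries, a pattern seen in 9.69% of all genes tested, and in 92 of the 120 lowered genes every OMV library lay below both, seen in 10.9%. Within replicate numbers 2 and 3, where OMV and PBS libraries can be set side by side, 78 of the 79 raised genes were higher with OMVs in both pairs and 120 of the 120 lowered genes were lower in both. The exception was VCAN-AS1. Of all 18775 genes tested, 5384 were higher in both pairs and 5558 were lower in both. The fit that called the genes used these same pairs, so their agreement is no separate support. A fixed rule chose 35 raised and 41 lowered genes for naming, some of which are not reported here. The other 44 raised genes had log2 fold changes of 0.231 to 1.53 and the other 79 lowered genes of -1.54 to -0.259.

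**Figure D1:**
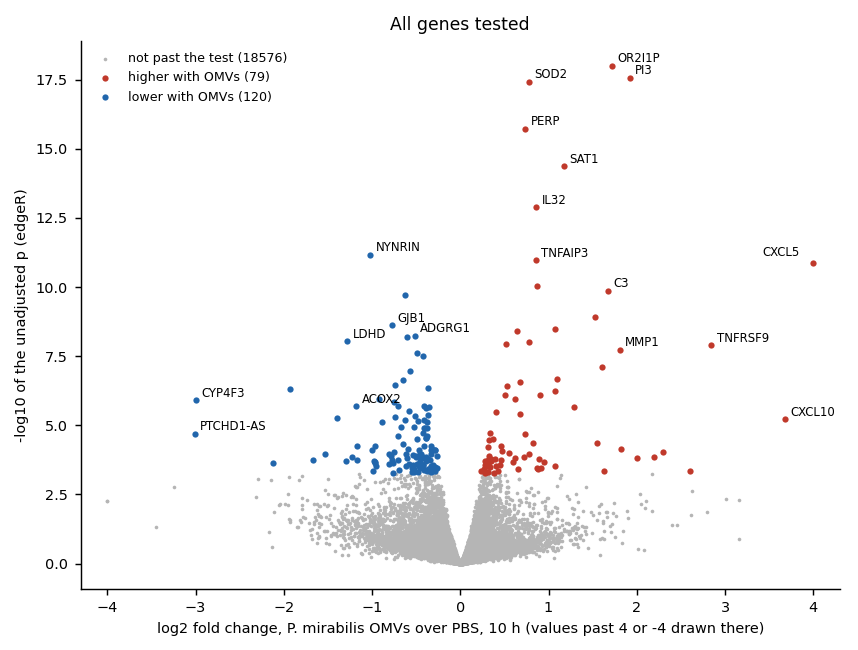
The log2 fold change of each of the 18775 genes tested (x axis, OMVs over PBS at 10 h) against the -log10 of its unadjusted p (y axis), with 79 genes higher with OMVs in red and 120 lower in blue. OR2I1P, PI3 and SOD2 have the smallest p-values, and most lowered genes lie between 0 and -1 on the x axis.

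Promoter sequence was available from RefSeq (GRCh38.p14) for 60 of the 79 raised and 84 of the 120 lowered genes, and for 11872 of all genes tested. The 250 bases before the annotated start are shown for 6 raised genes named below: a pair of chemokines, a TNF receptor, the NF-kB inhibitor TNFAIP3, the cytokine IL32 and the junction protein PERP. They are printed in the direction of transcription, with matches to the NF-kB consensus or to the AP-1 consensus TGANTCA in capitals. All 6 hold a match, whereas most of the 60 raised promoters do not, so they do not stand for the raised genes as a whole. Both strands were searched, and overlapping matches run together.
CXCL5: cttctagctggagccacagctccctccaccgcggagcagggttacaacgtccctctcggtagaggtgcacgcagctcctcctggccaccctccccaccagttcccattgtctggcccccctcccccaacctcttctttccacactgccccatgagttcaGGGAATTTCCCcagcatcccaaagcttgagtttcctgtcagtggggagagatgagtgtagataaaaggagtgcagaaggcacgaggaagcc
CXCL10: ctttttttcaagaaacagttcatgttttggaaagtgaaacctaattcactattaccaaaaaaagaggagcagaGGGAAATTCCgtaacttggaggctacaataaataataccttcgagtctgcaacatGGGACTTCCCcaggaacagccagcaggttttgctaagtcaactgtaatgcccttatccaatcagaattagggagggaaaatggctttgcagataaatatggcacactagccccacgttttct
TNFRSF9: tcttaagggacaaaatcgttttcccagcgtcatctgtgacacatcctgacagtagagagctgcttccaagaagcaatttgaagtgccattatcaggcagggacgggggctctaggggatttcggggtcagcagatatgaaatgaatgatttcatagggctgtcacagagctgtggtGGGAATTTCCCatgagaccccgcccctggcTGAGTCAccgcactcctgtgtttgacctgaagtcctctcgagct
TNFAIP3: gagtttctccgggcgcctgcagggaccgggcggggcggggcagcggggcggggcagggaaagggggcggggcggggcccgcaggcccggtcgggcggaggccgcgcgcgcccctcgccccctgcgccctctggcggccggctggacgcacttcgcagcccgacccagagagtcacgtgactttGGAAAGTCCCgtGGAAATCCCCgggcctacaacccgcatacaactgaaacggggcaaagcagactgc
IL32: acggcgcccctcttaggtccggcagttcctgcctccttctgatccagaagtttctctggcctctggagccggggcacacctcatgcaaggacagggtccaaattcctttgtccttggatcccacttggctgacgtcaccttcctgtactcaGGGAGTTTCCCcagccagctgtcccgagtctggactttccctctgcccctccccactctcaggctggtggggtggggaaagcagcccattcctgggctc
PERP: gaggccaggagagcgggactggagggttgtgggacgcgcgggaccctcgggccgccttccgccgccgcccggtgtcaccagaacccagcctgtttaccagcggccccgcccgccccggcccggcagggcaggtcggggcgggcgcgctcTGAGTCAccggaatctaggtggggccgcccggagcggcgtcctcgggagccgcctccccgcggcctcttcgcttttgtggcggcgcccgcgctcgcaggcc
These stretches are chr4:73998678-73998927 (minus strand), chr4:76023498-76023747 (minus strand), chr1:7940840-7941089 (minus strand), chr6:137867009-137867258 (plus strand), chr16:3065153-3065402 (plus strand) and chr6:138107420-138107669 (minus strand). The capitals are NF-kB matches in CXCL5, CXCL10, TNFAIP3 and IL32, an NF-kB match followed by an AP-1 match in TNFRSF9, and an AP-1 match in PERP. In CXCL5 the NF-kB match ends 81 bases before the start and in TNFAIP3 the nearer one ends 46 bases before it. An NF-kB match was present in 10 of the 60 raised promoters (16.7%), 3 of the 84 lowered ones (3.57%) and 697 of all 11872 (5.87%). The other raised genes with one were SDC4, DHX30, SLC27A4, TMSB4X and TAPBP. An AP-1 match was present in 5 raised promoters (8.33%), 4 lowered ones (4.76%) and 480 of all (4.04%). A match describes these letters only, since no binding was measured.

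Chemokines were among the raised genes. CXCL5, which attracts neutrophils through CXCR2, had 6.51, 7.96 and 4.45 CPM in the OMV libraries, against 0 and 0 CPM in the PBS libraries. It was detected in every fitted OMV library and in no PBS library, so the groups did not overlap. The OMV libraries held 134 counts of it together and the PBS libraries 0, which makes CXCL5 at least 21.0-fold higher with OMVs when 3 counts over the PBS libraries are taken as the floor (adjusted p = 2.81e-08). CXCL10, which attracts T cells through CXCR3, had 2.48, 4.04 and 3.74 CPM in the OMV libraries, against 0.42 and 0.138 CPM in the PBS libraries. With 71 counts in the OMV libraries against 2 in the PBS libraries, the ratio was 16.7, with a 95% counting interval of 4.46 to 141 (adjusted p = 0.00206). DESeq2 gave neither gene an adjusted p, because their mean counts lay under the limit it sets itself, and without that limit its adjusted p was 0.445 for CXCL5 and 0.0681 for CXCL10, which ended both calls. Over all alternatives the adjusted p spanned 6.37e-20 to 0.445 for CXCL5 and 1.69e-06 to 0.404 for CXCL10. Of 18 chemokines listed, 8 could be tested and these 2 passed, with a median log2 fold change of 0.671 over the 8. Outside the groups compared, CXCL5 reached at most 4.56 CPM on a left-out lane and 2.15 CPM in a fitted library. It thus passed the filter on low counts mainly through the OMV libraries, and the 2 of 8 and the median depend partly on that filter. CCL20, the ligand of CCR6, had 0.62, 1.9 and 3.02 CPM with OMVs, against 0 and 0.827 CPM with PBS and did not pass (log2 fold change 1.32 ± 0.68), and neither did CXCL1, CXCL2, CXCL3 or CXCL16, whose values ran between -0.52 and 0.92. Some neutrophil chemokines fell below the filter on low counts: CXCL8 had 2, 15 and 8 counts in the OMV libraries and 1 and 3 in the PBS libraries, and CXCL6 had 3, 10 and 5 counts in the OMV libraries and 0 and 0 in the PBS libraries.

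Among cytokines and the TNF family, 2 of 17 tested genes passed, both higher with OMVs. TNFRSF9, the co-stimulatory receptor 4-1BB, had 12.2, 5.23 and 4.27 CPM in the OMV libraries, against 2.1 and 0.551 CPM in the PBS libraries. Its level in OMV replicate 2 was above that in the other OMV libraries, and the lowest OMV value still exceeded the highest PBS value (log2 fold change 2.84 ± 0.45 (SE), adjusted p = 1.08e-05). IL32, a cytokine induced by bacterial products, was expressed at a higher level, with 118, 123 and 117 CPM in the OMV libraries, against 63.8 and 67.3 CPM in the PBS libraries. The OMV libraries lay close together and well apart from PBS (log2 fold change 0.86 ± 0.10 (SE), adjusted p = 4.08e-10). TNF itself had no count in the 5 fitted libraries, IL6 had 1, 0 and 0 counts in the OMV libraries against 2 and 1 in the PBS libraries, and IL18 had 10.2, 11.6 and 10.9 CPM with OMVs, against 10.5 and 10.3 CPM with PBS.

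Within the NF-kB pathway, 2 of 31 tested genes passed and the median was 0.0967. TNFAIP3 encodes A20, a ubiquitin-editing enzyme that inhibits NF-kB signalling and is itself an NF-kB target. It had 71.5, 71.4 and 79.2 CPM in the OMV libraries, against 41.6 and 39.1 CPM in the PBS libraries, which did not overlap (log2 fold change 0.86 ± 0.11 (SE), adjusted p = 2.51e-08). IKBKE, a kinase related to the IkB kinases, had 25.7, 36.1 and 29 CPM in the OMV libraries, against 13 and 15.3 CPM in the PBS libraries (log2 fold change 1.07 ± 0.16 (SE), adjusted p = 4.23e-06). Other feedback and subunit genes did not pass: NFKBIA, the gene of IkB alpha, had 29.3, 29.8 and 33.3 CPM with OMVs, against 31.1 and 28.7 CPM with PBS, and NFKB1 had 55.2, 52.9 and 53.6 CPM with OMVs, against 57.9 and 48 CPM with PBS. NFKB2, RELB and BIRC3 had log2 fold changes of 0.56 ± 0.27, 0.57 ± 0.19 and 0.75 ± 0.26, with adjusted p-values of 0.417, 0.165 and 0.16.

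Among bacterial sensors and adaptors, 1 of 22 tested genes passed, and it was TLR7, an endosomal receptor for single-stranded RNA. It had 1.71, 6.66 and 8.36 CPM in the OMV libraries, against 0.42 and 1.79 CPM in the PBS libraries, so OMV replicate 2 overlapped the PBS values while both replicate pairs were higher with OMVs (log2 fold change 2.01 ± 0.50 (SE), adjusted p = 0.0236). TLR4, the receptor of LPS, had no count in any of the 8 libraries, and neither did its partner LY96. TLR2, which senses lipoproteins, had 10.1, 9.27 and 8.9 CPM with OMVs, against 11.3 and 8.68 CPM with PBS. TLR5, the flagellin receptor, had 2.02, 1.43 and 1.25 CPM with OMVs, against 1.68 and 1.79 CPM with PBS, and neither passed the test.

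Genes of mucosal defence were raised in 3 of 19 tests, and none was lowered. PI3, or elafin, an antimicrobial inhibitor of neutrophil elastase, had 65.4, 99.8 and 63.7 CPM in the OMV libraries, against 16.8 and 24.3 CPM in the PBS libraries. All OMV levels lay above both PBS levels (log2 fold change 1.92 ± 0.16 (SE), adjusted p = 2.41e-14). NOX1 and DUOX2 are NADPH oxidases that release superoxide and hydrogen peroxide from the colon epithelium. NOX1 had 29.8, 33.8 and 33.5 CPM in the OMV libraries, against 9.65 and 19 CPM in the PBS libraries (log2 fold change 1.07 ± 0.19 (SE), adjusted p = 0.000315). DUOX2 was expressed at a low level, with 5.89, 7.96 and 8.54 CPM in the OMV libraries, against 0.42 and 2.34 CPM in the PBS libraries (log2 fold change 2.20 ± 0.53 (SE), adjusted p = 0.0236). LCN2, the siderophore-binding lipocalin, was below the filter with 7, 6 and 2 counts in the OMV libraries against 0 and 0 in the PBS libraries, and SAA1 had 1, 9 and 2 counts in the OMV libraries against 0 and 0 in the PBS libraries. The mucin gene MUC13 had 21.9, 40.6 and 32.9 CPM with OMVs, against 15.1 and 22.5 CPM with PBS and an adjusted p of 0.122.

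The complement list split. C3, the central protein of the complement cascade, had 222, 246 and 251 CPM in the OMV libraries, against 62.5 and 80.8 CPM in the PBS libraries, and the groups did not overlap (log2 fold change 1.68 ± 0.19 (SE), adjusted p = 2.34e-07). C5, which is cleaved downstream of C3, had 9.92, 6.18 and 5.69 CPM in the OMV libraries, against 19.7 and 11 CPM in the PBS libraries, also without overlap (log2 fold change -0.88 ± 0.18 (SE), adjusted p = 0.00231). The other 11 complement genes tested did not pass, among them CFB with a log2 fold change of 0.02 ± 0.25.

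SOD2, the manganese superoxide dismutase of mitochondria and a classic NF-kB target, had 285, 257 and 220 CPM in the OMV libraries, against 165 and 142 CPM in the PBS libraries, and the groups did not overlap (log2 fold change 0.78 ± 0.07 (SE), adjusted p = 2.41e-14). GPX2, a glutathione peroxidase of the gut epithelium, had 70.4, 65.1 and 55.9 CPM in the OMV libraries, against 36.1 and 42 CPM in the PBS libraries (log2 fold change 0.72 ± 0.17 (SE), adjusted p = 0.0236). They were the 2 of 20 redox genes that passed, and HMOX1 and NQO1, targets of NRF2, had log2 fold changes of 0.03 ± 0.15 and 0.04 ± 0.10. SAT1, the rate-limiting enzyme of polyamine breakdown, had 53.2, 69.3 and 68.1 CPM in the OMV libraries, against 25.6 and 28.9 CPM in the PBS libraries (log2 fold change 1.17 ± 0.12 (SE), adjusted p = 1.62e-11).

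**Figure D2:**
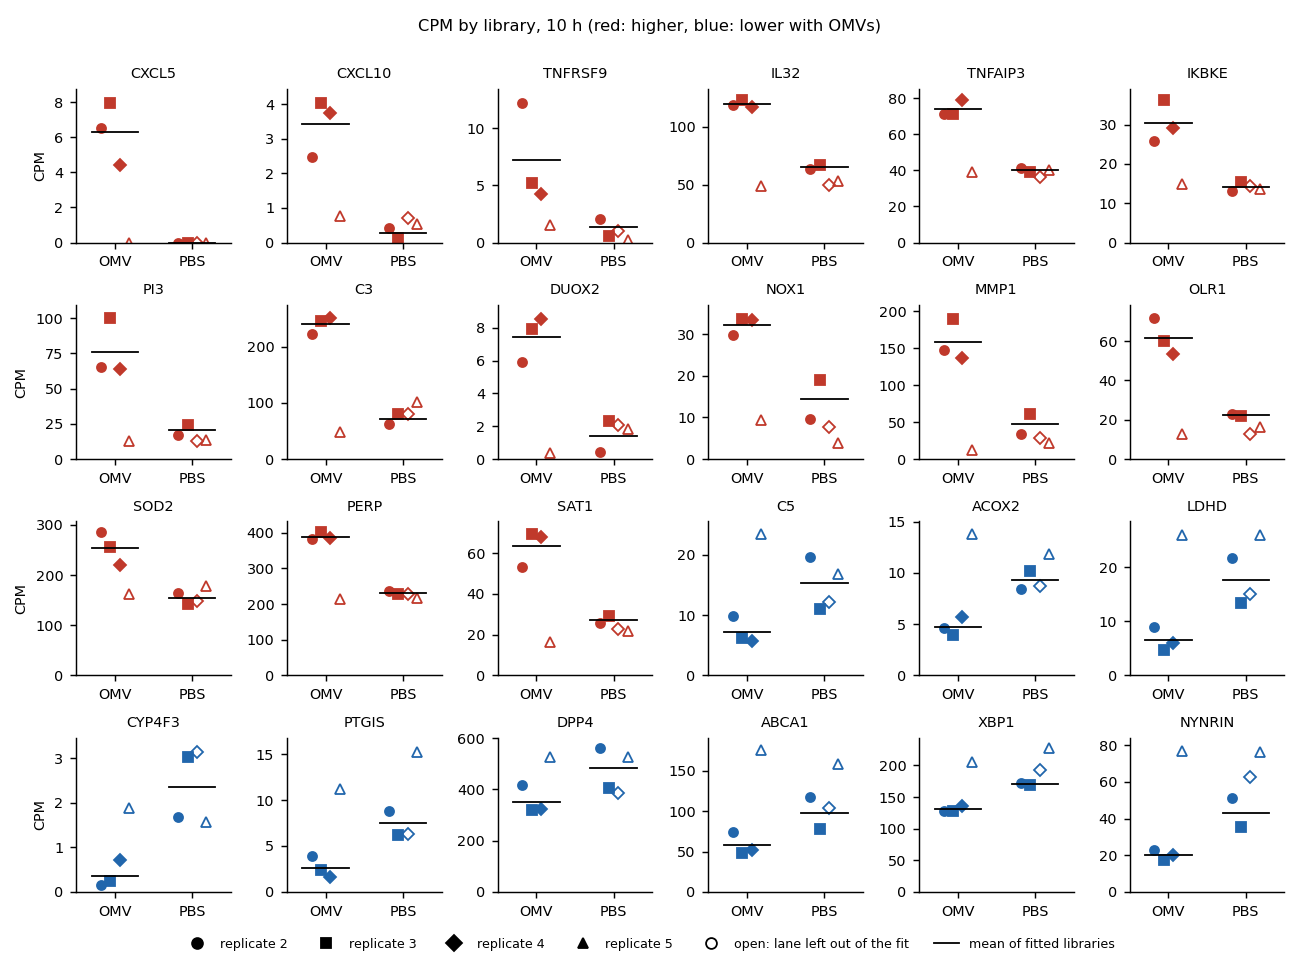
CPM by library at 10 h for 15 raised (red) and 9 lowered (blue) genes, OMVs left and PBS right in each panel. Filled symbols are the 5 fitted libraries, open symbols the 3 libraries on lanes left out, and the bar is the mean of the fitted ones. For CXCL5, PI3 and C3 all filled OMV symbols lie above all PBS symbols, while OMV replicate 5, drawn open, lies within or below the PBS range.

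Presentation of peptides on MHC class I contributed 3 raised genes of 16 tested, with small fold changes. HLA-E, a ligand of NK cell receptors, had 89.8, 69.3 and 59.6 CPM in the OMV libraries, against 56.7 and 48 CPM in the PBS libraries (log2 fold change 0.53 ± 0.10 (SE), adjusted p = 0.000226). TAPBP, the peptide-loading factor tapasin, had 121, 138 and 141 CPM with OMVs, against 97.4 and 111 CPM with PBS, with a log2 fold change of 0.31 ± 0.08. B2M, the shared light chain, had a log2 fold change of 0.32 ± 0.09 and an adjusted p of 0.0567. HLA genes are near-identical in sequence, so reads may be split between them. OR2I1P, annotated beside them on chromosome 6, had the smallest p-value of all genes, with 61.9, 61.6 and 59.4 CPM in the OMV libraries, against 17.6 and 17.5 CPM in the PBS libraries (log2 fold change 1.71 ± 0.15 (SE), adjusted p = 1.86e-14). It overlaps GABBR1 and UBD on the opposite strand, and UBD, an interferon- and TNF-inducible ubiquitin-like protein, had 5, 5 and 3 counts in the OMV libraries against 0 and 1 in the PBS libraries. Since no strand setting was stated for the counting, reads of OR2I1P cannot be told apart from those of UBD. The interferon response list had no gene past edgeR's test among 25 (6 at an unadjusted p under 0.05, 0 by DESeq2 and 0 by limma voom), and its median was -0.0355. Over all 18775 genes tested, 2161 had an unadjusted p under 0.05 by edgeR. The edgeR p of ISG15 was far from the threshold after adjustment (log2 fold change 0.04 ± 0.27 (SE), adjusted p = 0.989).

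Matrix proteases and wound genes were raised in 5 of 23 tests, with none lowered. MMP1, an interstitial collagenase, had 148, 189 and 137 CPM in the OMV libraries, against 33.2 and 60.6 CPM in the PBS libraries (log2 fold change 1.80 ± 0.25 (SE), adjusted p = 1.51e-05). LAMB3 and LAMA3, which encode laminin chains, had 222, 175 and 194 CPM with OMVs, against 238 and 211 CPM with PBS for LAMB3 and 48.5, 44.6 and 50.7 CPM with OMVs, against 39.9 and 47.7 CPM with PBS for LAMA3, and neither passed. CD44, the hyaluronan receptor, had 18.3, 55.9 and 52.5 CPM in the OMV libraries, against 8.39 and 26.6 CPM in the PBS libraries. Here OMV replicate 2 lay below PBS replicate 3, yet OMVs were higher within both replicate numbers (log2 fold change 1.09 ± 0.19 (SE), adjusted p = 0.000142). SDC4, a heparan sulphate proteoglycan, had 233, 327 and 335 CPM with OMVs, against 190 and 205 CPM with PBS (log2 fold change 0.51 ± 0.08 (SE), adjusted p = 9.95e-06). Transglutaminase TGM2 had the smallest change of the 5 that passed (log2 fold change 0.38 ± 0.11 (SE), adjusted p = 0.0488). MMP7 and MMP10 were below the filter, MMP7 with 6, 5 and 5 counts in the OMV libraries against 0 and 0 in the PBS libraries, and MMP10 with 11, 13 and 2 counts in the OMV libraries against 0 and 4 in the PBS libraries.

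Cell surface and junction genes gave a mixed picture. PERP, a desmosomal membrane protein and p53 target, had 382, 402 and 384 CPM in the OMV libraries, against 236 and 228 CPM in the PBS libraries, in groups that did not overlap (log2 fold change 0.74 ± 0.07 (SE), adjusted p = 9.04e-13). PARD3, a polarity protein, rose (log2 fold change 0.30 ± 0.08), and CLDN3, a tight junction claudin, had 10.1, 11.3 and 13.3 CPM in the OMV libraries, against 18.5 and 19.3 CPM in the PBS libraries (log2 fold change -0.75 ± 0.18 (SE), adjusted p = 0.0184). The other 27 junction genes tested did not pass. CEACAM7, an adhesion molecule of differentiated colon cells, had 1.4, 6.66 and 5.34 CPM in the OMV libraries, against 0.42 and 1.1 CPM in the PBS libraries (log2 fold change 2.29 ± 0.56 (SE), adjusted p = 0.0181), and L1CAM had 14.7, 66.6 and 59.6 CPM in the OMV libraries, against 4.62 and 39.7 CPM in the PBS libraries (log2 fold change 0.88 ± 0.23 (SE), adjusted p = 0.0398). CEACAM7 and L1CAM both had far lower levels in OMV replicate 2 than in replicates 3 and 4. SDCBP, or syntenin-1, an adaptor of syndecans and exosomes, had 93.2, 109 and 100.5 CPM in the OMV libraries, against 45.7 and 60.5 CPM in the PBS libraries (log2 fold change 0.87 ± 0.11 (SE), adjusted p = 1.76e-07).

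Further raised genes came from several roles. OLR1, the scavenger receptor LOX-1, had 71.6, 59.8 and 53.4 CPM in the OMV libraries, against 23.1 and 21.6 CPM in the PBS libraries (log2 fold change 1.60 ± 0.24 (SE), adjusted p = 5.43e-05). EHF, an epithelial ETS transcription factor, had 4.5, 5.94 and 3.38 CPM in the OMV libraries, against 1.26 and 1.38 CPM in the PBS libraries and was the only one of 24 intestinal transcription factors tested that rose (log2 fold change 1.82 ± 0.44 (SE), adjusted p = 0.0156). ABAT, the GABA transaminase, had 83.4, 72.5 and 82.9 CPM in the OMV libraries, against 44.9 and 44.8 CPM in the PBS libraries (log2 fold change 0.78 ± 0.12 (SE), adjusted p = 9.38e-06). SLC12A2, the basolateral Na-K-Cl cotransporter NKCC1 of secretory cells, had 247, 530 and 516 CPM in the OMV libraries, against 149 and 342 CPM in the PBS libraries, which overlapped between groups and differed within each replicate number (log2 fold change 0.64 ± 0.09 (SE), adjusted p = 4.47e-06). The oxytocin receptor gene OXTR and the lysosomal protease gene CTSS had low levels, with log2 fold changes of 1.55 ± 0.36 and 1.63 ± 0.45. VCAN-AS1 held 35 counts with OMVs against 3 with PBS, a ratio of 5.49 with a 95% counting interval of 1.73 to 27.9, and it lies antisense to VCAN.

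Among the lowered genes, fatty acid oxidation supplied 4 of 30 tested, with none raised and 24 of the 30 below 0. Over all 18775 genes tested, 9461 lay below 0 and 0.639% were called lower. ACOX2, a peroxisomal oxidase of branched fatty acids and bile acid intermediates, had 4.65, 3.92 and 5.69 CPM in the OMV libraries, against 8.39 and 10.2 CPM in the PBS libraries (log2 fold change -1.18 ± 0.23 (SE), adjusted p = 0.000865). CRAT, carnitine acetyltransferase, had 30.1, 17.7 and 20.5 CPM in the OMV libraries, against 48.7 and 27.4 CPM in the PBS libraries, and OMV replicate 2 overlapped PBS replicate 3 (log2 fold change -0.63 ± 0.13 (SE), adjusted p = 0.00216). EHHADH, the peroxisomal bifunctional enzyme, had a log2 fold change of -0.39 ± 0.10. The median of the list was -0.108. CPT1A, which brings fatty acids into mitochondria, had 15.2, 17.1 and 18.1 CPM with OMVs, against 13 and 19.6 CPM with PBS and did not pass (log2 fold change -0.11 ± 0.16 (SE), adjusted p = 0.867), and neither did PPARA, the receptor that drives these genes (log2 fold change -0.20 ± 0.10 (SE), adjusted p = 0.469).

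Lipoprotein assembly and cholesterol genes lay lower as well: all 19 tested genes of that list had log2 fold changes below 0, with a median of -0.226, and 3 passed. Of all 18775 genes tested, 9461 had values below 0. ABCA1, the cholesterol efflux pump, had 74.3, 47.5 and 52 CPM in the OMV libraries, against 118 and 78 CPM in the PBS libraries (log2 fold change -0.67 ± 0.13 (SE), adjusted p = 0.00349). NPC1L1, the intestinal cholesterol importer, had 65, 22.6 and 21.9 CPM in the OMV libraries, against 91.5 and 31.1 CPM in the PBS libraries, so its spread between replicate 2 and the other replicates exceeded the OMV effect (log2 fold change -0.43 ± 0.11 (SE), adjusted p = 0.0325). DGAT1, which makes triglycerides, had 102.8, 117 and 114 CPM with OMVs, against 140 and 144 CPM with PBS (log2 fold change -0.37 ± 0.10 (SE), adjusted p = 0.0448). The most abundant members did not pass, APOB with 1913, 1695 and 1953 CPM with OMVs, against 2481 and 1999 CPM with PBS and APOA1 with 1082, 1037 and 944 CPM with OMVs, against 1209 and 1130 CPM with PBS. In the sterol synthesis list, TM7SF2 was lowered, with a log2 fold change of -0.49 ± 0.11. CYP27A1, the mitochondrial sterol 27-hydroxylase, fell too (log2 fold change -0.45 ± 0.12 (SE), adjusted p = 0.038), the only one of 23 cytochrome and conjugation genes to pass.

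Of the brush border list, 2 of 29 tested genes passed, both lower, and 25 of the 29 had values below 0, with a median of -0.280. Of all 18775 genes tested, 9461 had values below 0. DPP4, the peptidase that cleaves incretin hormones, had 415, 319 and 322 CPM in the OMV libraries, against 560 and 405 CPM in the PBS libraries. OMV replicate 2 lay above PBS replicate 3, and within each replicate number OMVs were lower (log2 fold change -0.37 ± 0.07 (SE), adjusted p = 0.000257). CDHR5, a protocadherin of microvilli, had 129, 121 and 141 CPM with OMVs, against 170 and 155 CPM with PBS (log2 fold change -0.33 ± 0.09 (SE), adjusted p = 0.0342). SI, sucrase-isomaltase, had 71, 32 and 29.5 CPM with OMVs, against 111 and 49.5 CPM with PBS and did not pass (log2 fold change -0.66 ± 0.33 (SE), adjusted p = 0.447), and VIL1, the villin gene, had 430, 466 and 474 CPM with OMVs, against 507 and 514 CPM with PBS (log2 fold change -0.19 ± 0.06 (SE), adjusted p = 0.119). NHERF1, a scaffold under the apical membrane, had 246, 187 and 205 CPM in the OMV libraries, against 356 and 245 CPM in the PBS libraries (log2 fold change -0.42 ± 0.07 (SE), adjusted p = 2.37e-05). The transcription factors ISX, which controls vitamin A uptake genes, and RXRA, the shared retinoid X partner, were lowered, with log2 fold changes of -0.77 ± 0.20 and -0.40 ± 0.09. CDX2 had a log2 fold change of 0.01 ± 0.10.

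Among lowered genes of eicosanoid and amino acid metabolism, CYP4F3 and PTGIS stood at low levels. CYP4F3, a leukotriene B4 hydroxylase, had 0.155, 0.238 and 0.712 CPM in the OMV libraries, against 1.68 and 3.03 CPM in the PBS libraries, and the groups did not overlap (log2 fold change -2.99 ± 0.57 (SE), adjusted p = 0.000592). Reads of CYP4F3 may be shared with its close relatives CYP4F2 and CYP4F12. PTGIS, prostacyclin synthase, had 3.88, 2.38 and 1.6 CPM in the OMV libraries, against 8.81 and 6.2 CPM in the PBS libraries (log2 fold change -1.39 ± 0.29 (SE), adjusted p = 0.00184). These were the 2 of 20 eicosanoid genes that passed, and PTGS2, the gene of COX-2, had 6.67, 16.3 and 14.8 CPM with OMVs, against 10.5 and 11.2 CPM with PBS. LDHD, the mitochondrial D-lactate dehydrogenase, had 8.99, 4.75 and 6.05 CPM in the OMV libraries, against 21.8 and 13.4 CPM in the PBS libraries (log2 fold change -1.28 ± 0.20 (SE), adjusted p = 9.01e-06). SLC38A3, a glutamine transporter, had 12.4, 7.84 and 8.01 CPM in the OMV libraries, against 23.1 and 14.5 CPM in the PBS libraries (log2 fold change -0.92 ± 0.17 (SE), adjusted p = 0.000535). ALDH5A1, which acts after ABAT in GABA breakdown, had a log2 fold change of -0.33 ± 0.08, and ALDH6A1 of valine breakdown had -0.60 ± 0.09.

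Among the other lowered genes, XBP1, the transcription factor of the unfolded protein response, had 129, 128 and 136 CPM in the OMV libraries, against 172 and 169 CPM in the PBS libraries (log2 fold change -0.41 ± 0.08 (SE), adjusted p = 0.000865). None of the other 21 chaperone and stress genes tested beside it passed, and HSPA5, the chaperone BiP, had a log2 fold change of 0.10 ± 0.09. NYNRIN, a gene with a retroviral integrase domain, had 22.9, 17.6 and 19.9 CPM in the OMV libraries, against 51.2 and 35.1 CPM in the PBS libraries and the smallest p-value of the lowered genes (log2 fold change -1.02 ± 0.13 (SE), adjusted p = 1.8e-08). PDGFRB, the PDGF receptor beta, had 9.3, 6.89 and 6.58 CPM in the OMV libraries, against 23.9 and 14.6 CPM in the PBS libraries (log2 fold change -1.17 ± 0.26 (SE), adjusted p = 0.0126), and TNXB, tenascin X, had a log2 fold change of -1.66 ± 0.42. PDGFRB is also on the fibroblast marker list, whose summed level was 66.1 to 86.2 CPM with OMVs and 76.3 to 91.3 CPM with PBS, with COL1A2 and DCN at 0 in all 8 libraries. Other members were present over the 8 libraries, COL1A1 at 16.8 to 47.3, PDGFRA at 10.9 to 37.0 and MYH11 at 10.1 to 17.2 CPM. The gap junction gene GJB1 and the adhesion receptor gene ADGRG1 were lowered, with log2 fold changes of -0.77 ± 0.11 and -0.51 ± 0.08. The lowest value of all genes past the test belonged to PTCHD1-AS, with 0.775, 0.119 and 0 CPM in the OMV libraries, against 4.62 and 1.24 CPM in the PBS libraries (log2 fold change -3.01 ± 0.66 (SE), adjusted p = 0.00545).

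Immediate early genes, apoptosis, mitosis, hypoxia, heat shock, metallothionein, ATF4 and WNT lists had no gene past the test in edgeR's fit, over 172 genes tested, of which 29 had an unadjusted p under 0.05 and 4 passed by DESeq2 and 4 by limma voom. Over all 18775 genes tested, 2161 had an unadjusted edgeR p under 0.05, and 260 passed by DESeq2 and 231 by limma voom. EGR1 had 12.7, 13.8 and 17.8 CPM with OMVs, against 44.9 and 23.3 CPM with PBS and a log2 fold change of -1.08 ± 0.54, with an adjusted p of 0.441. The hypoxia and glycolysis list lay above 0 in 24 of 27 genes, with a median of 0.181, beside 9314 of all 18775 genes tested. It was not the only list that leaned to 1 side. The ATF4 list lay above 0 in 15 of 19 genes, with a median of 0.164. The immediate early list lay below 0 in 27 of 34 genes (median -0.150) and the metallothionein list in 6 of 7 (median -0.163), beside 9461 of all genes tested.

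**Figure D3:**
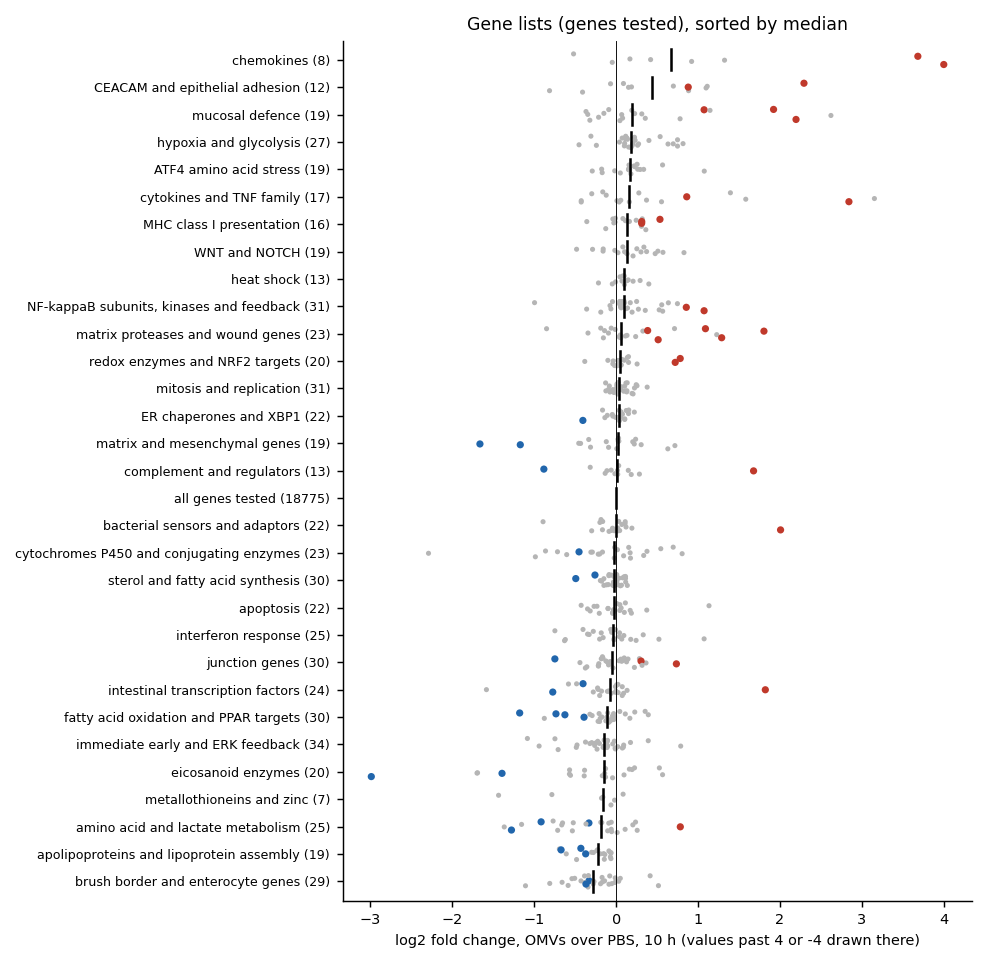
Log2 fold change at 10 h, OMVs over PBS (x axis), of each tested gene of 30 lists, 1 point a gene and 1 list a line, sorted by the list's median (black bar). Red and blue points passed the test. Chemokines have the highest median, 0.671, and brush border genes the lowest, -0.280, beside -0.0024 over all genes tested. The chemokine median covers the 8 genes that passed the filter on low counts, CXCL5 mainly through the OMV libraries.

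Culture time was then set beside these changes, because RNA levels of Caco-2 cells move with time in culture. The siRNA controls (cells transfected with a non-targeting siRNA) share no library with the OMV or PBS groups, and 6 of them at 24 h were compared with 9 at 10 h. They were given 2, 5 or 100 ng of siRNA, and the doses were averaged at each time. The 24 h libraries were replicates 2 and 3 only, while those of 10 h also held replicates 4 and 5. Of all genes tested, 2851 were higher at 24 h (15.2%) and 2920 were lower (15.6%). Of the 120 genes lowered by OMVs, 98 were higher at 24 h than at 10 h in those controls (81.7%) and 1, DPP4, was lower. Of the 79 genes raised by OMVs, 54 were lower at 24 h (68.4%) and 3 were higher, namely JAK1, TGM2 and TAPBP. The 98 genes are 3.44% of all that rose with time and the 54 are 1.85% of all that fell. The median change with time was 0.401 over the lowered genes and -0.374 over the raised ones, against 0.0045 over all genes tested. For most of these genes the OMV difference and the change with culture time thus had opposite signs.

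**Figure D4:**
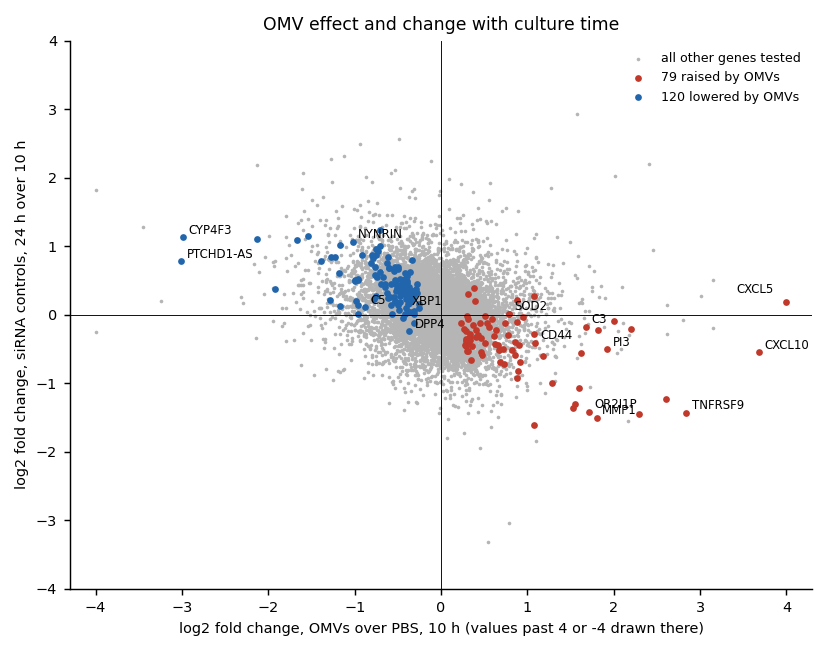
Log2 fold change with OMVs over PBS at 10 h (x axis) against the log2 fold change from culture time in siRNA controls, 24 h over 10 h (y axis), 1 point a gene. Genes lowered by OMVs (blue) lie mostly above 0 on the y axis and raised genes (red) mostly below it, while CXCL5, SOD2 and DPP4 do not follow that pattern.

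The genes differed in this respect. Among the raised ones, MMP1, OR2I1P, NOX1 and OLR1 fell with time in the controls, with log2 fold changes of -1.51, -1.42, -1.61 and -1.07. For 22 raised genes no change with time passed the test, and these included CXCL5 (0.19), CXCL10 (-0.55), C3 (-0.18), SOD2 (0.02), ABAT (0.01), SDCBP (-0.10), SDC4 (-0.01) and DUOX2 (-0.22). PI3 fell with time too (-0.50), by less than its OMV effect. Among the lowered genes, NYNRIN rose with time by 1.07. For 21 lowered genes no change with time passed the test, among them XBP1 (0.09), C5 (0.11), PDGFRB (0.13) and SPTSSB (0.01), a subunit gene of serine palmitoyltransferase. DPP4 fell with time (-0.24) and also fell with OMVs.

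A culture-time score was computed for each library as the mean log2 CPM of 2750 genes that rose with time in the siRNA controls minus that of 2865 genes that fell, without the 199 genes above. It was -1.13, -1.24 and -1.16 in OMV replicates 2, 3 and 4, against -0.906 and -0.959 in PBS replicates 2 and 3. The means were -1.18 ± 0.0565 (SD, n = 3) with OMVs and -0.932 ± 0.0378 (SD, n = 2) with PBS. The groups did not overlap, and the two-sided exact permutation test gave p = 0.1, the smallest this design allows. Cells given *L. casei* vesicles scored -1.17 ± 0.0307 (SD, n = 3), those given *E. faecalis* vesicles -0.941 ± 0.0227 (SD, n = 2) and those given LPS -0.852 ± 0.0403 (SD, n = 2). The siRNA controls spanned -1.25 to -1.07 at 10 h and -0.52 to -0.232 at 24 h. With the score as a covariate beside the replicate block, an alternative added after the data were seen, 52 genes were higher and 162 lower with OMVs. Of the 199 genes, 69 passed in that fit and all 199 kept their sign. The 29 raised genes among the 69 included CXCL5, CXCL10, PI3, C3, IL32, TNFAIP3, TNFRSF9, IKBKE, SOD2, PERP, SAT1, SDC4, SDCBP, MMP1, CD44, OLR1, EHF and ABAT, and the 40 lowered ones included LDHD, NYNRIN, ACOX2, PTGIS, DPP4, XBP1, C5, PDGFRB and GJB1. NOX1, DUOX2, TLR7, GPX2, CYP4F3, ABCA1 and CLDN3 did not pass there. The score was taken from the same treated libraries and did not overlap between OMVs and PBS. Adjusting for it can therefore also remove part of an OMV effect. Passing or not passing in that fit thus does not tell an OMV effect from a difference in culture state.

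**Figure D5:**
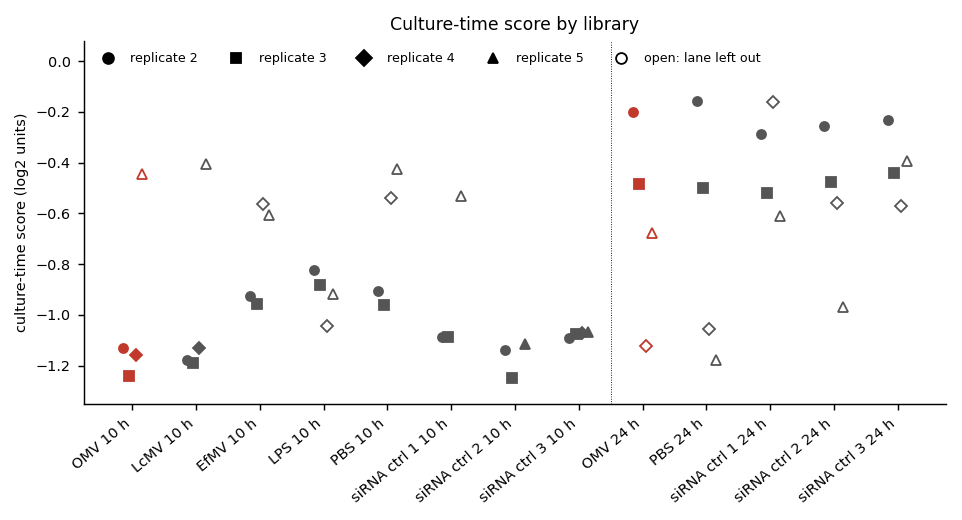
Culture-time score of each library (y axis, log2 units) in groups at 10 h (left of the dotted line) and 24 h (right), with OMV groups in red and libraries on lanes left out as open symbols. The 3 fitted OMV libraries at 10 h lie below both fitted PBS libraries, while left-out OMV replicate 5 and PBS replicates 4 and 5 at 10 h lie at -0.446, -0.540 and -0.426, near the siRNA controls of 24 h.

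The replicate number was a block in the fit because libraries with the same number deviated together from their group means. Without it, 18 of the 199 genes passed and no other gene did: PI3, CXCL5, C3, OR2I1P, PERP, SOD2, SAT1, IL32, TNFAIP3, IKBKE, ABAT, QSOX1 and CEP76 among the raised, and MYORG, ADGRG1, CYP4F3, CAPN5 and IGSF9 among the lowered. The fitted groups were small, and the count depended on single libraries: it was 37 without PBS replicate 3, which leaves PBS with 1 library assumed to vary like the other groups, 83 without OMV replicate 2 and 121 without OMV replicate 3. In all 5 fits that leave out 1 library, all 199 genes kept their sign and 24 passed every time. Among these 24, NOX1, IL32, PERP, TNFAIP3, PI3, SDC4, C3, SAT1, SDCBP, CXCL5, ABAT, OR2I1P, IKBKE and SOD2 were raised, and TNS1, NHERF1, ALDH6A1, MYORG, LDHD, GJB1, SPTSSB, ADGRG1 and NYNRIN were lowered.

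The 3 libraries on the lanes left out did not repeat the pattern. OMV replicate 5 lay above the mean of PBS replicates 4 and 5 for 23 of the 79 raised genes (29.1%), against 48.9% of all genes tested, and below it for 50 of the 120 lowered genes (41.7%), against 51.1%. OMV replicate 5 and PBS replicate 5 correlated best with fitted libraries of replicate 2 at 24 h, and PBS replicate 4 with those of replicate 3. The PBS mean thus mixes unlike replicates, and no count was made against PBS replicate 5 alone. CXCL5 had 0 CPM in OMV replicate 5 and 0 and 0 CPM in PBS replicates 4 and 5. PI3 had 13 CPM in OMV replicate 5, against 12.9 and 13.7 CPM in PBS replicates 4 and 5, and C3 had 47.8 CPM in OMV replicate 5, against 79.7 and 100.6 CPM in PBS replicates 4 and 5. OMV replicate 5 thus resembled PBS for the genes that separated the fitted groups. With all libraries of the series and the block, 6 genes passed, all of them raised (PERP, PI3, SAT1, SDCBP, CXCL5 and SOD2), and all 199 kept their sign. The 5 libraries on which the 199 genes were called are part of that fit and outnumber the 3 added ones. Kept signs, here and in the other fits above, are therefore no separate check. With all libraries and no block, 3 passed: PERP, PI3 and CXCL5.

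At 24 h, 2 fitted OMV libraries were compared with 2 PBS libraries, none of which is part of the 10 h comparison. There, 18 genes were higher (0.0959%) and 3 lower (0.016%) with OMVs. Of the 79 genes raised at 10 h, 10 were among the 18 at 24 h, which is 12.7% of the raised genes of 10 h and 55.6% of those of 24 h. They were PI3, C3, OR2I1P, TNFAIP3, IKBKE, IL32, PERP, SDC4, EHF and SVIL. Of the 120 lowered genes, 1 was among the 3 at 24 h, DPP4, which is 0.833% of the lowered genes of 10 h and 33.3% of those of 24 h. PI3 had 42.5 and 66.9 CPM with OMVs at 24 h, against 13.2 and 15.6 CPM with PBS (1.92 ± 0.18 on the log2 scale, SE). C3 had 215 and 254 CPM with OMVs at 24 h, against 52.2 and 67.4 CPM with PBS (1.98 ± 0.20). TNFAIP3 was higher at 24 h by 1.25 ± 0.12 and OR2I1P by 2.09 ± 0.19. The median log2 fold change at 24 h was 0.179 over the genes raised at 10 h and -0.0832 over those lowered, beside 0.0008 over all genes tested.

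The difference between the OMV effects at 10 and 24 h was tested for every gene, and 6 genes passed (0.032%), all of them past the test at 10 h. SOD2 was higher with OMVs by 0.78 ± 0.07 (SE) at 10 h and by 0.18 ± 0.08 at 24 h (adjusted p of the difference = 0.00192), where it had 183 and 146 CPM with OMVs and 150 and 141 CPM with PBS. SDCBP had effects of 0.87 ± 0.11 at 10 h and 0.05 ± 0.13 at 24 h (adjusted p = 0.0381). NYNRIN had -1.02 ± 0.13 at 10 h and -0.21 ± 0.11 at 24 h, and ADGRG1 -0.51 ± 0.08 and 0.12 ± 0.08 (adjusted p = 0.0256 and 0.00276). SLC38A3 had -0.92 ± 0.17 at 10 h and 0.25 ± 0.15 at 24 h, and SCNN1A, a subunit of the epithelial sodium channel, -0.74 ± 0.15 and 0.26 ± 0.14 (adjusted p = 0.0173 and 0.0252). The test of the difference did not pass for CXCL5: at 24 h it had 0 and 0.433 CPM with OMVs and 0 and 0 CPM with PBS, too few counts for a fold. The 6 genes depended on the fit: they did not pass with no replicate block, and 4 of them passed with the culture-time score.

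*P. mirabilis* LPS was given alone in another group at 10 h, and OMVs were compared with it over the same OMV libraries. OMVs gave higher levels than LPS for 244 genes (1.3%) and lower levels for 353 (1.88%). CXCL5 had 0 and 0 CPM in the fitted LPS libraries, and PI3 had 14.9 and 21.5 CPM there, so PI3 was higher with OMVs than with LPS by 2.12 ± 0.15 on the log2 scale (adjusted p = 5.4e-17). C3 was higher by 1.65 ± 0.18, SOD2 by 0.82 ± 0.07 and IL32 by 0.75 ± 0.09, with adjusted p-values of 4.48e-08, 3.63e-16 and 3.3e-09. DPP4 was lower with OMVs than with LPS, with a log2 fold change of -0.43 ± 0.07 (adjusted p = 3.95e-06). DUOX2, TLR7 and CTSS, with differences of 1.29 ± 0.46, 1.54 ± 0.47 and 1.12 ± 0.35, did not pass. The labels and the methods of the study give the LPS dose in different units, and the methods set it near the LPS concentration measured in the OMVs. Set against PBS, the LPS group had a median log2 fold change of 0.068 over the genes raised by OMVs and -0.0506 over those lowered. Both contrasts share the PBS libraries.

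OMVs were also compared with the mean of the vesicles of both Gram-positive species at 10 h, which were given at other doses, 7500000000 vesicles of *E. faecalis* and 150000000000 of *L. casei*. The difference passed for 197 genes, of which 93 were higher with OMVs (0.495% of the genes tested) and the rest were lower (0.554%). CXCL5 was detected in the fitted *L. casei* libraries at 0.388, 2.15 and 0.766 CPM and in neither fitted *E. faecalis* library, and its difference passed (adjusted p = 1.77e-10). PI3 was higher with OMVs by 1.74 ± 0.11, C3 by 1.22 ± 0.13, TNFAIP3 by 0.63 ± 0.08 and PERP by 0.65 ± 0.05. DPP4 and XBP1 were lower with OMVs, with log2 fold changes of -0.38 ± 0.05 and -0.41 ± 0.06 and adjusted p-values of 8.63e-07 and 4.8e-06. CRAT, CLDN3 and SLC38A3, lowered against PBS, differed from the other vesicles by -0.13 ± 0.10, -0.29 ± 0.15 and -0.36 ± 0.14 and did not pass. Against PBS, which all these contrasts share, the median over the 79 raised genes was 0.675 with OMVs, 0.296 with *L. casei* vesicles and 0.109 with *E. faecalis* vesicles, and over the 120 lowered genes -0.509 with OMVs, -0.31 with *L. casei* vesicles and -0.0993 with *E. faecalis* vesicles.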

How the data were processed

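Total RNA of Caco-2 cells was depleted of ribosomal RNA and sequenced as paired ends on a DNBSEQ-G400. The authors deposited 1 table of raw counts per gene for 63241 gene IDs and all libraries; reads were aligned to GRCh38 with STAR, duplicates were treated with sambamba, and primary alignments of mapping quality 10 or more were counted with featureCounts, in versions named by the study's methods. No strand option is among the parameters stated. Symbols were added from GENCODE 44 for 62666 IDs.

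Groups and replicate numbers came from the sample titles. The count of each gene was modelled in R 4.3.3 with edgeR 4.0.16 (TMM, robust quasi-likelihood F test, two-sided, Benjamini-Hochberg over 18775 genes that passed filterByExpr; 46395 had a count), over 66 libraries and 28 groups, with the replicate number as block. The 39 other libraries were on 3 lanes left out because of their expression. Same-numbered OMV and PBS libraries deviated together from their group means (r = 0.745 and 0.631 for replicates 2 and 3, and with the left-out lanes 0.533, 0.781, 0.567 and 0.69 for replicates 2 to 5), so the numbers were taken as pairs. The 2 fitted PBS libraries deviate from their mean equally in opposite directions, so the first 2 values are not separate observations. This correlation was not computed for unlike numbers. Nothing says that replicates were separate cultures, so the p-values rest on library-to-library spread that may be technical. CPM are TMM-scaled over all libraries. The SE of a log2 fold change is its size over the square root of F. Counting intervals cover counting error only.

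Named genes were the 15 highest and 15 lowest log2 fold changes, the 15 smallest p-values in each direction and every gene of 30 lists past the test (76 genes), plus list-defining genes that did not pass. Genes and lists were chosen with earlier results of these data known, and some items are not reported here. Alternatives used DESeq2 1.42.0, limma 3.58.1 (voom), other filters, size factors, blocks and libraries. The scripts were tested on simulated data.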

Additional observations from a re-analysis of the deposited data

Results flagged for a closer look

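In each group of 4 libraries labelled OMV 10 h or PBS 10 h, left-out lanes included, the named genes were checked for a library far from the others, and 12 of 142 gene and group pairs were past Dixon's limit of 0.829 for 4 libraries. Chance flags about 1 in 20 groups, but that rate is no comparison here, because the genes were chosen on the fitted libraries and replicate 5 was left aside for its expression. All 12 were OMV replicate 5, which was left out of the fit, and none was a PBS library. In that library C3 had 47.8 CPM, IL32 49.0 CPM, NOX1 9.27 CPM, OR2I1P 8.51 CPM and PERP 214 CPM, each below the other OMV libraries. NYNRIN had 77.0 CPM there, XBP1 205, TM7SF2 83.2, THSD7B 11.3, PTCHD1-AS 7.19, DNAH2 4.54 and NKAIN4 3.21 CPM, each above the other OMV libraries.

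The OMV effect differed between 10 and 24 h for 6 genes by the test of the difference itself. The effect at 10 h minus that at 24 h was 0.60 on the log2 scale for SOD2, 0.82 for SDCBP, -0.64 for ADGRG1, -1.17 for SLC38A3, -1.0 for SCNN1A and -0.81 for NYNRIN.

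A pair of libraries on left-out lanes that were not labelled as OMV samples had levels of CXCL5, PI3, C3 and OR2I1P above those of the fitted PBS libraries. Only these genes were searched across the series. The library labelled LPS transfection, 24 h, replicate 4, had 4.56 CPM of CXCL5, 85.0 CPM of PI3, 185 CPM of C3 and 69.8 CPM of OR2I1P. The library labelled 2 ng control siRNA, 10 h, replicate 5, had 0.534 CPM of CXCL5, 46.7 CPM of PI3, 243 CPM of C3 and 36.3 CPM of OR2I1P. For comparison, the fitted PBS libraries at 10 h had 0 and 0 CPM of CXCL5, 16.8 and 24.3 CPM of PI3, 62.5 and 80.8 CPM of C3 and 17.6 and 17.5 CPM of OR2I1P. Other genes raised by OMVs were mixed in the siRNA library. There TNFAIP3 at 75.5 CPM and PERP at 301 CPM were above both fitted PBS libraries. SOD2 at 138 CPM, NOX1 at 8.54 CPM and OLR1 at 14.9 CPM were below both. The libraries on left-out lanes entered no comparison here.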

How the results depend on the processing

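The count of genes past the test (199 in the main fit) moved by more than 1.5 times with how the block and the libraries were chosen. It was 6 with all libraries of the series and the block, 3 with all libraries and no block, 18 with no replicate block, 682 with the block set within each time, 349 with flow cell and lane added, 752 with OMV and PBS libraries alone and 843 with the 10 h libraries alone. Fits that leave out 1 library gave 37 to 183 genes, where PBS replicate 3 (37), OMV replicate 2 (83) and OMV replicate 3 (121) mattered most. DESeq2 gave 260 genes, limma voom 231, no filter on low counts 257, a minimum of 10 counts on average 231, RLE size factors 205, no robust option 203 and the culture-time score 214, an alternative added after the data were seen. Shared with the 199 were 197 to 199 genes in the larger counts above (682, 349, 752 and 843), 168 with DESeq2, 184 with limma voom and 69 with the score. The cause of these shifts was not tested. None of the 76 genes chosen by the rule changed sign under an alternative that gave it a value, and the minimum of 10 counts tested 70 of them. All alternatives reused libraries on which these genes were chosen, so the kept signs are no separate check. DESeq2 gave no adjusted p for 21 of the 76. With every p adjusted, an alternative added after the data were seen, it gave 208 genes, and CXCL5, CXCL10, EHF, CEACAM7, CTSS, L1CAM, TGM2 and VCAN-AS1 did not pass.

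The count of genes whose OMV effect differed between 10 and 24 h (6) was 14 with no filter, 41 with the block within each time, 11 with flow cell and lane, 17 with the culture-time score (4 of them among the 6), and 3 both without the robust option and with limma voom. By edgeR it was 0 with all libraries and the block (1168 genes at p under 0.05 before adjustment), 0 with all libraries and no block (850 such genes) and 0 with no replicate block (430 such genes). In the main libraries DESeq2 gave 4. Leaving out 1 library gave 1 to 6 genes, with 3 or fewer without any of OMV replicates 2 and 3 at 10 h, PBS replicates 2 and 3 at 10 h or 24 h, or OMV replicate 2 at 24 h.

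Against LPS (597), the count was 6 and 5 with all libraries with and without the block, 1505 with the block within each time, 37 with no replicate block and 972 with the score, and 193 to 470 without 1 library, under 400 without OMV replicate 2 (226) or 3 (379) or LPS replicate 2 (194) or 3 (193). Against the other vesicles (197), it was 8 and 6, 615, 20 and 419 in the same order, and 71 to 178 without 1 library, down to 71 when OMV replicate 2 was left out, 112 for OMV replicate 3 and 97 for *E. faecalis* replicate 3. With the score, 203 of the 597 genes against LPS were among the 972. Against the other vesicles, 161 of the 197 were among the 419.

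Depth limits the low genes most. PBS replicate 2 held 2476570 counts, so 1 count there was worth more CPM than in any other fitted library of the comparison, and genes such as CXCL8, CXCL6, LCN2 and MMP7 stayed below the filter.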

Other observations

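Other genes past the test lay outside the lists and were chosen for mention after their values were seen. In the interferon gamma pathway, the receptor gene IFNGR1 had 97.7, 81.1 and 70.5 CPM with OMVs, against 69.3 and 53.5 CPM with PBS (log2 fold change 0.50 ± 0.09 (SE), adjusted p = 0.000404), and the kinase gene JAK1 had 56.9, 71.7 and 73.5 CPM with OMVs, against 40.3 and 54.4 CPM with PBS (log2 fold change 0.39 ± 0.10 (SE), adjusted p = 0.0246). QSOX1, a secreted disulphide-forming oxidase, had 21.9, 22.3 and 20.1 CPM with OMVs, against 10.1 and 12.7 CPM with PBS (log2 fold change 0.91 ± 0.17 (SE), adjusted p = 0.000422). KYNU, kynureninase of tryptophan breakdown, had 8.68, 11.8 and 9.79 CPM with OMVs, against 5.04 and 6.2 CPM with PBS (log2 fold change 0.87 ± 0.23 (SE), adjusted p = 0.0382), and it did not change detectably with culture time in the siRNA controls (0.21).

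Among the lowered genes, F7 and F10 encode clotting factors and SERPINF2 encodes the plasmin inhibitor. F7 had 26.7, 15.4 and 18.1 CPM with OMVs, against 46.6 and 26 CPM with PBS (log2 fold change -0.79 ± 0.19 (SE), adjusted p = 0.0221), SERPINF2 had 49.5, 34.9 and 43.6 CPM with OMVs, against 78.5 and 61.6 CPM with PBS (log2 fold change -0.71 ± 0.15 (SE), adjusted p = 0.00646), and F10 had a log2 fold change of -0.52 ± 0.14 (SE). GLUD1, glutamate dehydrogenase, was the most abundant lowered gene named here, with 869, 768 and 810 CPM with OMVs, against 1203 and 1057 CPM with PBS (log2 fold change -0.45 ± 0.10 (SE), adjusted p = 0.0201). FCGRT, the neonatal Fc receptor that carries IgG across the epithelium, had 107, 97.3 and 102.5 CPM with OMVs, against 136 and 128 CPM with PBS (log2 fold change -0.37 ± 0.07 (SE), adjusted p = 0.00154).

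LYZ, the lysozyme gene, did not pass the test between OMVs and PBS (log2 fold change 0.19 ± 0.13 (SE), adjusted p = 0.61), but it separated the replicate numbers. It had 11.6, 185, 170 and 8.89 CPM in OMV replicates 2, 3, 4 and 5, and 10.1, 158, 153 and 8.43 CPM in PBS replicates 2, 3, 4 and 5, left-out lanes included. Replicates 3 and 4 lay apart from replicates 2 and 5 in both groups, and the cause was not tested.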
